A study of Mus musculus with 8 samples.

Results

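Retinoic acid (RA), a derivative of vitamin A, starts the differentiation of spermatogonia, the mitotic germ cells of the testis. In response to RA, undifferentiated A spermatogonia become A1 cells, which pass through further divisions to intermediate and B spermatogonia before meiosis. *Stra8*, which is induced by RA, and *Kit*, a receptor tyrosine kinase, are the usual markers of this step. ATAC-seq tags DNA that is open to a transposase, so a peak marks a stretch of accessible chromatin, often a promoter or an enhancer.

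Chromatin accessibility in PIWIL2-eGFP germ cells was compared between 120 h after RA, when the synchronized cells are B spermatogonia, and 0 h, when they are undifferentiated A spermatogonia. Each time had 2 libraries, and the 4 libraries were 4 of the 8 in the series. They held 205498 of its 328733 peaks, and peaks that overlapped by at least 1 bp merged into 84763 regions, against 87144 for all 8 libraries. The mice carried the Tg(Piwil2/EGFP) reporter, on a background given as C57BL/6 x 129s4/SvJae in the labels and as a C57BL/6 x SJL cross in the methods. All of them, the 0 h mice included, had received 100 mg/kg of WIN 18,446, an inhibitor of RA synthesis, daily for 7 days from 2 dpp. The 0 h mice were collected without RA. The 120 h mice were injected with 200 µg RA at 9 dpp and collected 120 h later, so time after RA and age cannot be told apart. Both testes of 1 mouse made 1 library, and the sort selected eGFP-positive cells, in which every germ cell stage that expresses *Piwil2* is included.

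The height of a peak is the deposited Peak Val, the number of overlapping tags at its summit after the authors had reduced all libraries to the same number of tags. The lowest Peak Val was 24 or 25 in each library. The authors called peaks at a p-value cutoff, so these values are no upper bound for regions without a peak. A region with no peak in a library did not pass this calling limit, and its height there is unknown. Depth behind a single peak is not known beyond this signal, and no counting error can be given. The germ cell genes *Ddx4*, *Dazl* and *Piwil2* had peaks in all 4 libraries, with a highest value between 258 and 1073. All 5 Sertoli cell markers (*Sox9*, *Amh*, *Wt1*, *Gata4* and *Cldn11*) also had peaks in all 4, with highest values from 96 to 331 at 0 h and from 39 to 167 at 120 h. Among the Leydig markers *Star* had no peak and *Cyp17a1* a peak of 31 in 0 h replicate 1 alone. *Insl3* had 81 and 112 at 0 h and 73 in 120 h replicate 1, and *Cyp11a1* had 212 and 102 at 120 h only. Among the peritubular, vessel and blood markers *Ptprc* and *Csf1r* had no peak at 120 h. *Acta2*, *Myh11*, *Pecam1* and *Cdh5* had peaks in all 4 libraries, with highest 120 h values of 147 and 86, 292 and 169, 116 and 61, and 61 and 43. A peak near a gene is no measure of its expression, and the part of other cell types in the results was not tested.

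Regions that differed most between the times carried different sequence motifs. The 200 bp around the summit are shown for 3 regions that were higher or called only at 120 h and hold ACATTGT, the core bound by DMRT factors, and for 3 that were lower or called only at 0 h and hold CCAATCA, the CCAAT box bound by NFY. The first motif was found, on either strand, in 9.76% of all 84763 regions and the second in 6.00%. None of the regions shown held a CpG island, a GC-rich stretch. In the regions without one that had a peak in all 4 libraries, the shares were 19.4% and 8.25%. The windows are forward strand sequences of GRCm38 from RefSeq, 5′ to 3′, with the motif, or its reverse complement, in capitals.
*C1ql1* intron, chr11:102940221-102940420: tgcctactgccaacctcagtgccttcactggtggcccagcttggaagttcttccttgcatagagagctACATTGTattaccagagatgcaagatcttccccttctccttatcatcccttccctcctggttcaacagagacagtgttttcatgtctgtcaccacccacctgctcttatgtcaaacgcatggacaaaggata
*Cbfa2t3* intron, chr8:122687869-122688068: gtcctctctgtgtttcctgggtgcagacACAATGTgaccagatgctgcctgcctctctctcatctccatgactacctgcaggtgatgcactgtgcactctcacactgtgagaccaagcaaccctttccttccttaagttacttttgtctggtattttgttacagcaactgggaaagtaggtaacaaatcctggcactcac
*Abcf1* intron, chr17:35967517-35967716: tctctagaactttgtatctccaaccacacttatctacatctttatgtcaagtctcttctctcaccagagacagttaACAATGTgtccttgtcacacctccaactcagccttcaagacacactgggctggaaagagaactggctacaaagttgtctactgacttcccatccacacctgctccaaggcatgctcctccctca
*Cdh13* intron, chr8:118618909-118619108: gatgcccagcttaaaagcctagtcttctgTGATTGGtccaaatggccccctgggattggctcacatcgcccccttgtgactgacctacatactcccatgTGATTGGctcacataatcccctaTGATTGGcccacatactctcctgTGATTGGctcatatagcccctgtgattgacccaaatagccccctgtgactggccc
Between genes, chr9:49873693-49873892: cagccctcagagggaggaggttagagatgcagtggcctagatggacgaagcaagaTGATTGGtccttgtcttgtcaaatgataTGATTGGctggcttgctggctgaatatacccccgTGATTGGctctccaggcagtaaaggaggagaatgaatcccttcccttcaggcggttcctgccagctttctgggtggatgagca
*Prr12* intron, chr7:45051005-45051204: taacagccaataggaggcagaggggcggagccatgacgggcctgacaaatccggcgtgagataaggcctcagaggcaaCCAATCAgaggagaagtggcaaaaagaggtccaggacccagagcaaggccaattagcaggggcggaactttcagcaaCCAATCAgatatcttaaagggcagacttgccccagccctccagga

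Each of the first 3 windows had 1 match to the DMRT motif. The *Cdh13* window had 4 matches to the NFY motif in a repeated unit, the chromosome 9 window 3 and the *Prr12* window 2.

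Fewer peaks were called at 120 h than at 0 h. The 0 h libraries had 72215 and 69089 peaks and the 120 h libraries had 39551 and 24643, so that the groups did not overlap. The 0 h mean was 70652 ± 2210 (SD, n = 2) against 32097 ± 10542 (SD, n = 2) for 120 h, with p = 0.333 in an exact permutation test, two-sided, which is the smallest p that 2 libraries against 2 allow. The replicates differed more at 120 h, where 57.8% of the regions of replicate 1 and 93.1% of those of replicate 2 had a peak in the other library, than at 0 h, where the shares were 83.2% and 87.5%. P-values measure only the spread between these libraries, and those of limma below rest mostly on a spread pooled over all tested regions. In sorted cells in bulk, fewer cells with an open region and less opening per cell cannot be told apart.

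Of the 84763 regions, 26760 (31.6%) had a peak in both 0 h libraries and in no 120 h library, and 1129 (1.33%) had a peak in both 120 h libraries and in no 0 h library. All 4 libraries shared 20294 regions. Of the others, 12058 had a peak in both 0 h libraries and in 1 of the 120 h libraries, and 18050 in a single 0 h library alone. These counts rest on how many peaks each library had. When the 24643 highest peaks of each library were used, 3658 regions were called at 0 h only and 3004 at 120 h only, against 14420 in all 4. Without 120 h replicate 2, the library with the fewest peaks, the number called at 120 h only was 4434, and without 120 h replicate 1 it was 2002.

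What was kept at 120 h differed with where a region lay. Of the 0 h regions within 1000 bp of a gene start that held a CpG island, the GC-rich stretch that marks many promoters, 83.5% (of 10880) had a peak in both 120 h libraries. The share was 36.7% at gene starts without a CpG island, 21.5% inside genes without one, and 16.1% for regions with neither a gene within 10 kb nor a CpG island (of 17249). The same order ran through the share with no peak at 120 h, which was 7.32% at gene starts with a CpG island and 63.0% far from genes. CpG island gene starts were also the highest regions at 0 h, with a median of 222.8 against 69.5 for regions far from genes. When the 0 h regions were divided into quintiles by their 0 h height, the share kept in both 120 h libraries was, from the lowest to the highest, 3.37%, 9.31%, 22.0%, 48.9% and 88.1%. Within each quintile the gene start regions were kept more often than the rest, at 43.8% against 17.1% in the third quintile and 97.8% against 74.6% in the highest.

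**Figure D1:**
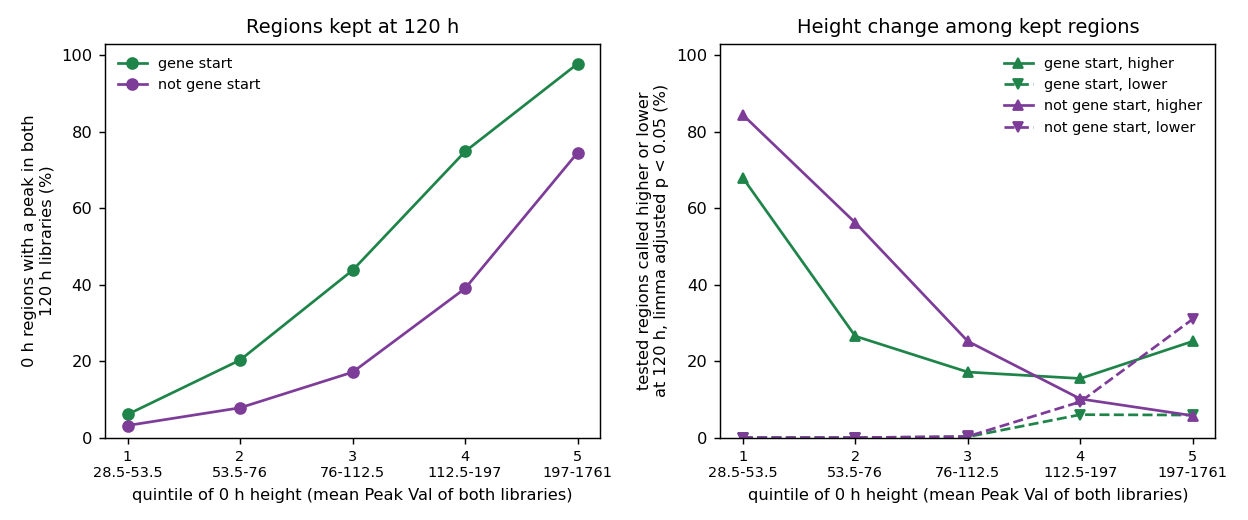
Left, the percent of 0 h regions that had a peak in both 120 h libraries, by quintile of 0 h height (mean Peak Val of both 0 h libraries, range below each number), for regions within 1000 bp of a gene start (green) and others (purple). Right, the percent of the kept regions that were called higher (upward triangles, solid lines) or lower (downward triangles, dashed lines) at 120 h. The kept share rises from 6.05% to 97.8% at gene starts, and among kept regions calls of lower height appear mainly in the 2 highest quintiles.

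The peaks of the 120 h libraries lay closer to promoters. Within 1000 bp of a gene start lay 21.8% and 23.0% of the peaks at 0 h and 33.0% and 46.0% at 120 h, a difference of 17.1 percentage points between the means. A CpG island was present in 21.3% and 22.5% of the peaks at 0 h and in 34.0% and 47.8% at 120 h. The groups did not overlap in either measure (exact permutation test, two-sided, p = 0.333 each, n = 2 against 2). With the highest 24643 peaks of each library, the percent at a gene start was 40.5% and 42.7% at 0 h and 42.3% and 46.0% at 120 h, which overlap, and the difference was 2.60 percentage points.

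Heights were compared in the 20294 regions that all 4 libraries shared. In these regions the median log2 height was 7.52 and 7.76 at 0 h and 7.04 and 6.36 at 120 h. Each library was therefore centred on its own median, and a region called higher or lower moved relative to the median region of its library. By limma with Benjamini-Hochberg adjustment over all 20294 regions, 4058 (20%) were higher at 120 h and 2015 (9.93%) were lower. Limma pools the variance over these regions (19.5 total degrees of freedom, median standard error 0.265). The standard error and p-value of 1 region are therefore no measure of its own replicate spread alone. The median log2 change was 0.21 centred and -0.73 on the deposited scale. On the deposited scale 207 were higher and 7283 lower. All 207 were among the 4058, and all 2015 remained lower. The 4058 had a median log2 change of 0.95 centred and of 0.01 on the deposited scale. The share of higher among all calls was 66.8% centred, 2.76% uncentred, 31.7% when centred on gene start regions, 46.3% after quantile normalization, 50.3% after cyclic loess normalization, 52.9% in regions with a mean value of at least 100 and 54.9% after removal of the GC trend. No region called in one direction was called in the other under any of these. Without 120 h replicate 2, 1325 were higher and 931 lower, without 0 h replicate 1, 2054 and 1108, and without 0 h replicate 2, 2322 and 1284.

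**Figure D2:**
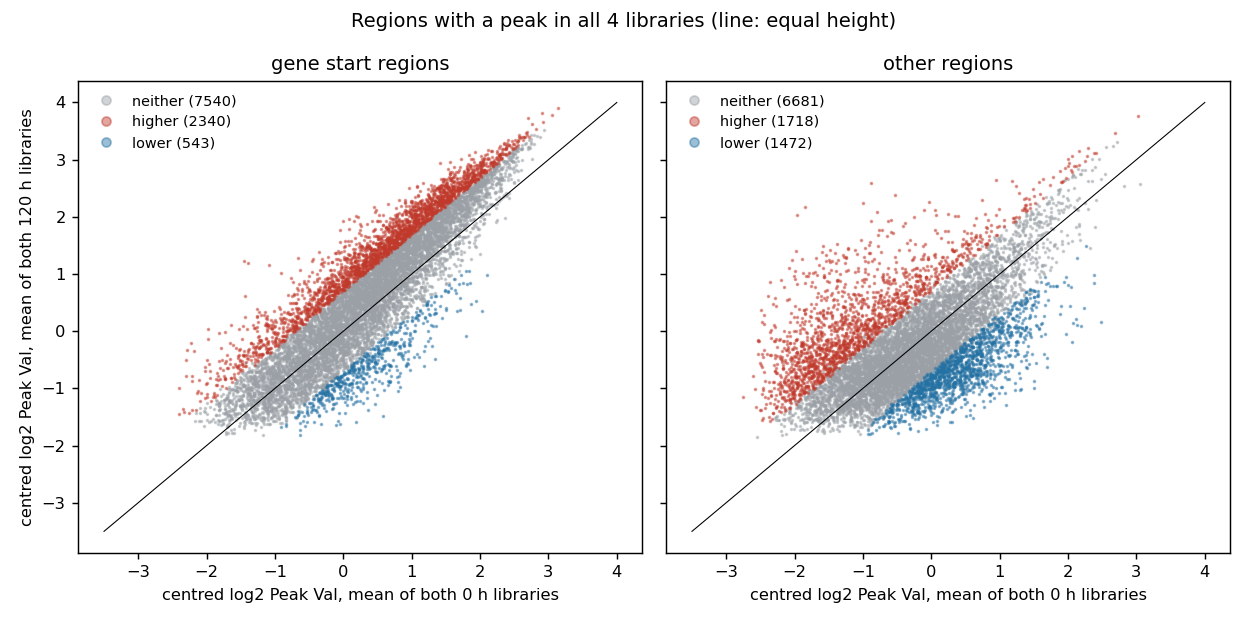
Centred log2 Peak Val at 120 h (y axis, mean of 2 libraries) against 0 h (x axis, mean of 2 libraries) for the 20294 regions shared by the 4 libraries, at gene starts (left) and elsewhere (right). Points are regions, red where called higher, blue where called lower and grey where neither, and the line marks equal height; 2340 gene start regions were higher and 543 lower, against 1718 and 1472 elsewhere.

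The regions that moved up and those that moved down lay in different places. Gene starts made up 57.7% of the higher regions, 27.0% of the lower regions and 51.4% of all regions tested, and CpG islands 59.5%, 21.6% and 53.3%. Whether the higher regions held more gene starts than all tested regions turned with the scaling. Their share was 37.1% after quantile normalization, 39.3% after cyclic loess normalization and 44.6% when centred on gene start regions, and the CpG island share 37.4%, 39.9% and 45.2%. The lower regions held 25.8% to 36.2% at gene starts in all settings, below the share of all tested regions. At gene starts with a CpG island 24.1% were higher and 3.49% lower (of 9083), whereas at those without one 11.4% were higher and 16.9% lower (of 1340). Far from genes and without a CpG island, 17.2% were higher and 19.4% lower (of 2774). The 207 regions higher on the deposited scale were of another kind. Of these, 4.35% lay at a gene start, 1.93% held a CpG island and 53.1% lay inside a gene, close to the 6.38%, 4.96% and 50.2% of the regions called at 120 h only.

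The calls also moved with height at 0 h. In the lowest quintile of 0 h regions, 82.4% of the 398 that could be tested were called higher and none lower, since a region that low is tested only where its 120 h peaks also pass the calling limit. In the highest quintile 25.2% of gene start regions were higher and 5.90% lower, against 5.74% higher and 31.0% lower for the rest.

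The largest rises were found in introns and between genes. The region in an intron of *C1ql1* (chr11:102939960-102940620 in mm10, as all positions here), which encodes a secreted C1q-like protein, had values of 56 and 55 at 0 h against 608 and 359 at 120 h. Its centred log2 change was 4.02 (standard error 0.26, limma adjusted p = 3.95e-08). The region in an intron of *Cbfa2t3* (chr8:122687693-122688265), a corepressor of transcription, had values of 39 and 67 at 0 h against 591 and 306 at 120 h, a change of nearly the same size (limma adjusted p = 5.48e-08). At 18 h and 48 h, *C1ql1* had values from 59 to 78 in 3 of the 4 libraries and *Cbfa2t3* had no peak in any. For *C1ql1* the centred heights of those 3 were -0.63, -0.36 and -0.39, below 1.87 and 1.76 at 120 h.

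An intron of *Shank2*, a synaptic scaffold gene, went from 50 and 51 to 460 and 165, and an intron of *Ankfy1*, an endosomal protein gene, from 47 and 50 to 315 and 194. An intron of *Camta1*, which encodes a calmodulin-binding transcription activator, went from 107 and 93 to 568 and 425, and an intron of *Sppl3*, an intramembrane protease gene, from 40 and 38 to 247 and 144. The other 2 of the 8 largest rises lay between genes. In none of the 8 did the groups overlap, as their choice required, and all 8 were also higher on the deposited scale, with log2 changes from 2.23 to 3.07. None held a CpG island or lay at a gene start. *Camta1* also had the most regions called higher of any gene, 8 of the 18 tested, against 20% of all tested regions. Of its 60 regions 18 were called at 0 h only, near the 31.6% of all regions. A gene with many regions can rank first through their number.

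None of the 8 largest falls lay at a gene start. The deposited heights also differed in level between times. In the 15539 regions that all 8 libraries shared, the median log2 height was 7.81 and 8.08 (0 h), 6.51 and 6.86 (18 h), 6.43 and 6.67 (48 h), then 7.38 and 6.73 (120 h). A region 5660 bp from the start of *A530010F05Rik* (chr2:125279920-125280592) had 524 and 611 at 0 h and then, in order of time, 125 and 170, 61 and 115, and 76 and 36. Its centred log2 change at 120 h was -2.49 (standard error 0.26, limma adjusted p = 4.15e-06). An intron of *Cdh13*, the gene of T-cadherin, went from 496 and 442 to 69 and 38, and an intron of *Lphn2*, an adhesion G protein-coupled receptor gene, from 380 and 648 to 58 and 46. A region between genes on chromosome 5 went from 1111 and 1127 to 156 and 87, and 1 on chromosome 9 from 533 and 449 to 74 and 35. All 8 regions with the largest falls had a peak in all 8 libraries of the series, and all their deposited 18 h and 48 h values were below both 0 h values. On the centred scale, however, both 18 h values were below both 0 h values in 4 of the 8, and both 48 h values in 7 of the 8. In all 8, every centred 18 h and 48 h value was above both 120 h values. *Dst*, a cytoskeletal linker gene, had the most regions called lower, 4 of the 5 tested, against 9.93% of all tested regions.

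**Figure D3:**
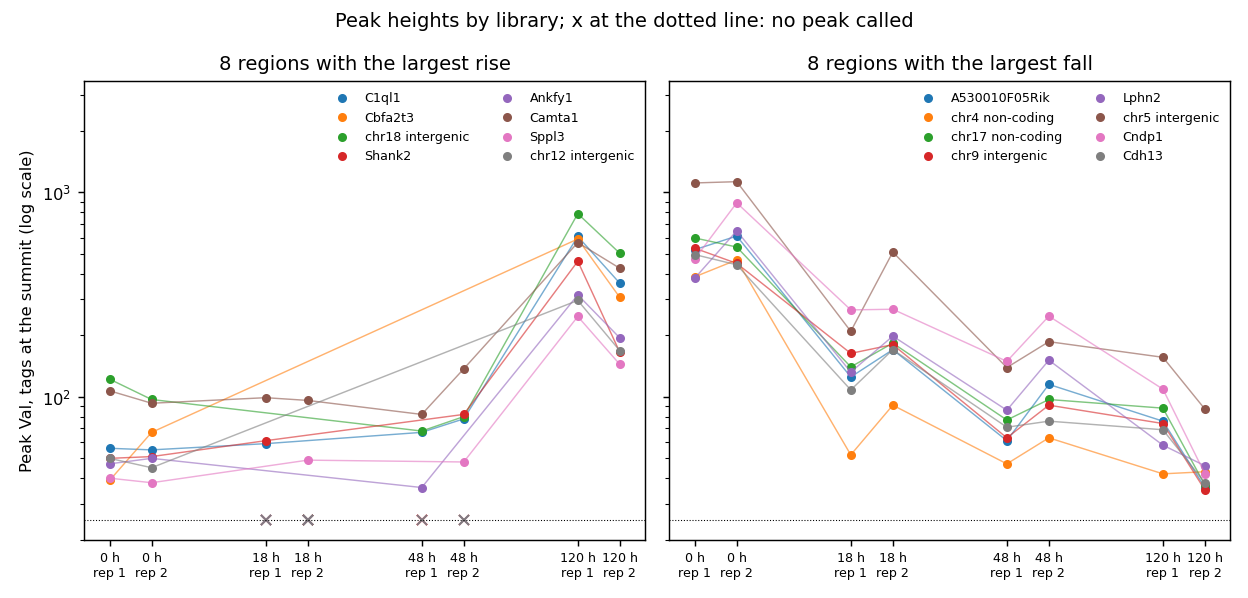
Peak Val (log scale) in the 8 libraries for the 8 regions with the largest rise (left) and the 8 with the largest fall (right) in centred height at 120 h. Each colour is a region, lines join called peaks, and a cross on the dotted line (drawn at 25) marks a library with no peak, where the height is unknown. The rises appear at 120 h, with 18 h and 48 h values of at most 137 or no peak, whereas all 8 falls are below both 0 h values from 18 h on. These are deposited values, and the median region was also lower at 18 h and 48 h than at 0 h.

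In the higher and lower regions that had a peak in all 8 libraries, the median centred heights at 18 h and 48 h lay between those of 0 h and 120 h. Among the 2946 of the 4058 higher regions that had a peak in all 8 libraries, the median centred log2 height was, from 0 h through 18 h and 48 h to 120 h, 0.04 and 0.17, then 0.34 and 0.36, then 0.52 and 0.45, and last 0.95 and 1.15. For 1804 of the 2015 lower regions it was 0.18 and 0.12, then -0.10 and -0.10, then -0.40 and -0.20, and at last -0.88 and -1.11. The 0 h and 120 h values are those the calls were made on. The 18 h and 48 h libraries had no part in the calls, but only regions with a peak in each of them are included. A set picked for its difference between 0 h and 120 h tends to have other libraries in between, so this order is no independent evidence.

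The highest regions called at 120 h only were also mostly intronic. An intron of *Abcf1*, a gene of translation, had values of 387 and 307 at 120 h. It had no peak in any 0 h, 18 h or 48 h library. A region just upstream of *Cnot8*, a deadenylase gene, had 332 and 271 at 120 h and was already called at 48 h with 87 and 75. Introns of *Dstn*, an actin-depolymerizing factor gene, and of *Pacsin1* had 348 and 204, and 259 and 205. Of the 1129 regions called at 120 h only, 831 (73.6%, against 53.1% of all 84763 regions) had no peak at 18 h or 48 h. A peak in both 48 h libraries was present in 9.66%, against 26.2% of all regions. *Mta3*, *Sh3pxd2a* and *Tanc1* had 3 such regions each, of 9, 19 and 15, against 1.33% of all regions, and the next genes had 2.

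The highest regions called at 0 h only still had peaks at 18 h and 48 h. One upstream of *Agpat5*, an acyltransferase gene, had 491 and 399 at 0 h, then 91 and 127 (18 h) and 49 and 64 (48 h). One at the start of *Ccnd3*, the gene of cyclin D3, had 370 and 427, then 79 and 136, then 64 and 93. An intron of *Prr12* had 367 and 412, then 126 and 219, then 109 and 139, and an exon of *Vash1*, a tubulin carboxypeptidase gene, 402 and 362, then 89 and 121, then 72 and 106. Centred, *Agpat5* had 1.13 and 0.56, then 0.00 and 0.13, then -0.81 and -0.67, whereas *Prr12* had 0.71 and 0.61, then 0.47 and 0.92, then 0.34 and 0.45. Most regions of this class were lower, with medians of 59 and 61 at 0 h, and 69.6% of the 26760 had no peak at 18 h or 48 h, against 53.1% of all regions. *Ctnna3*, a gene of cell adhesion, had the most, 24 of its 50 regions, against 31.6% of all regions.

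The sequences under these peaks differed. The 200 bp around the summit were searched on both strands for 19 motifs. Shares are given for regions without a CpG island, because such islands hold few AT-rich motifs. The DMRT motif is named for the family of *Dmrt1* and *Dmrtb1*, which act in spermatogonia. Without CpG islands it was present in 7.86% of the regions called at 0 h only and in 19.2% of those called at 120 h only. For the motif of NFY, a general promoter factor, the order was the reverse, with 6.90% at 0 h only and 1.68% at 120 h only. Both were below the 8.25% of regions with a peak in all 4 libraries. Among the 8 largest rises and the 6 highest 120 h regions, 3 in each set held the DMRT motif and none the NFY motif. Among the 8 largest falls 4 held the NFY motif and 1 the DMRT motif, and among the 6 highest 0 h regions 3 held the NFY motif and none the DMRT motif.

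The same contrast appeared in the height comparison, in regions called in all 4 libraries. Without CpG islands, the DMRT motif was in 19.4% of the tested regions, 26.2% of the higher and 14.3% of the lower. The NFY motif was in 8.25% of the tested regions, 2.98% of the higher and 18.4% of the lower. Seen from the motif, 37.1% of the 782 tested regions with the NFY motif were lower and 6.27% higher, and their median centred change was -0.43, against 16.7% lower, 17.3% higher and a median of -0.02 for all 9478 tested regions without a CpG island. Of the 1842 with the DMRT motif, 23.3% were higher and 12.3% lower, with a median of 0.11. Of the 0 h regions with the DMRT motif, 32.7% (of 5639) were kept in both 120 h libraries, against 19.4% of those without it. The order was the same in the 7 other scalings and filters tried, in which the DMRT share was 23.7% to 27.4% in the higher and 10.9% to 16.7% in the lower regions, and the NFY share 1.97% to 4.28% and 11.6% to 22.1%.

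The order held with equal numbers of peaks per library. In the regions without a CpG island, the DMRT motif was in 12.2% of those called at 0 h only and 25.7% of those called at 120 h only, and the NFY motif in 16.2% and 2.22%. In those called in all 4 libraries the shares were 19.9% (DMRT) and 11.2% (NFY). Base composition moved with both motifs. The median GC content of the window was 52.0% for all regions called at 0 h only and 48.5% for those at 120 h only. With equal numbers of peaks and a GC content from 45% to 55%, the DMRT shares were 9.73% and 26.8% and the NFY shares 23.2% and 2.60%. In such regions called in all 4 libraries they were 26.4% (DMRT) and 13.1% (NFY). Below a GC content of 45%, however, all deposited peaks gave the opposite order for the DMRT motif, with 25.7% at 0 h only and 20.5% at 120 h only, and with 34.0% of the higher and 41.0% of the lower regions. From 45% to 50%, the class of 768 of the 1842 tested regions with the motif, the shares were 33.6% of the higher and 31.4% of the lower regions. The higher regions held the motif more often by a wide margin above 50% alone, with 23.7% of the higher against 6.85% of the lower regions from 50% to 55% and 7.84% against 0.776% above. The NFY motif was more frequent in the lower than in the higher regions in all 4 classes of GC content, for example 30.2% against 2.25% from 50% to 55%.

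Height at 0 h moved with the NFY motif too, since regions with it had a median 0 h value of 269.5 against 165 for all tested regions without a CpG island. The tested regions without a CpG island were divided into quintiles by 0 h height. There the NFY regions were called lower more often than the rest in the 4 upper quintiles, at 46.9% against 27.2% in the fourth and 48.7% against 35.6% in the highest. Over all 0 h regions without a CpG island, 24.8% (of 3158) of those with the NFY motif were kept at 120 h against 20.8% of those without it. Within every height quintile of these 0 h regions, a separate division, the order was the reverse, at 14.1% against 25.4% in the fourth. The DMRT regions were kept more often in every quintile of the 0 h regions, at 31.7% against 23.4% in the fourth. They were called higher more often than the rest in the 3 lower quintiles of the tested regions (67.3% against 47.9% in the lowest) and not in the 2 upper ones (2.59% against 4.52% in the highest). In the lowest, none was called lower with or without the motif, since such regions are tested only where their 120 h peaks also pass the calling limit. Among the 662 tested NFY regions that all 8 libraries shared, the median centred height was 0.28 and 0.19 at 0 h, and then 0.09 and 0.03, -0.20 and -0.06, and -0.38 and -0.56 through 18 h and 48 h to 120 h. For all 6436 such regions without a CpG island it was lower at 120 h as well, with -0.19 and -0.31 at 0 h against -0.42 and -0.66.

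Of the other motifs, AGGTCA, the site that RA receptors bind with their RXR partners, was in 11.3% of regions called at 0 h only and 10.4% of those called at 120 h only without a CpG island. CNCCTCAG, the element linked to STRA8, was in 5.42% and 4.57%, ACAATGG of the SOX factors in 3.56% and 3.17%, and AGATAA of the GATA factors in 7.28% and 6.52%. The forkhead motif GTAAACA was in 5.02% and 2.61%. GGGCGG, the GC box of SP and KLF factors, was in 12.2% and 2.89%, and the CTCF core AGGGGGC in 6.89% and 2.14%. These 7 motifs were in 10.4%, 5.46%, 2.99%, 6.28%, 3.78%, 19.7% and 7.37% of all regions, in the order named, but these include regions with a CpG island. In the tested regions without a CpG island the shares were 10.5%, 5.50%, 3.05%, 5.63%, 3.60%, 17.2% and 7.40%. A motif match is a description of the window and does not show that the factor was bound.

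**Figure D4:**
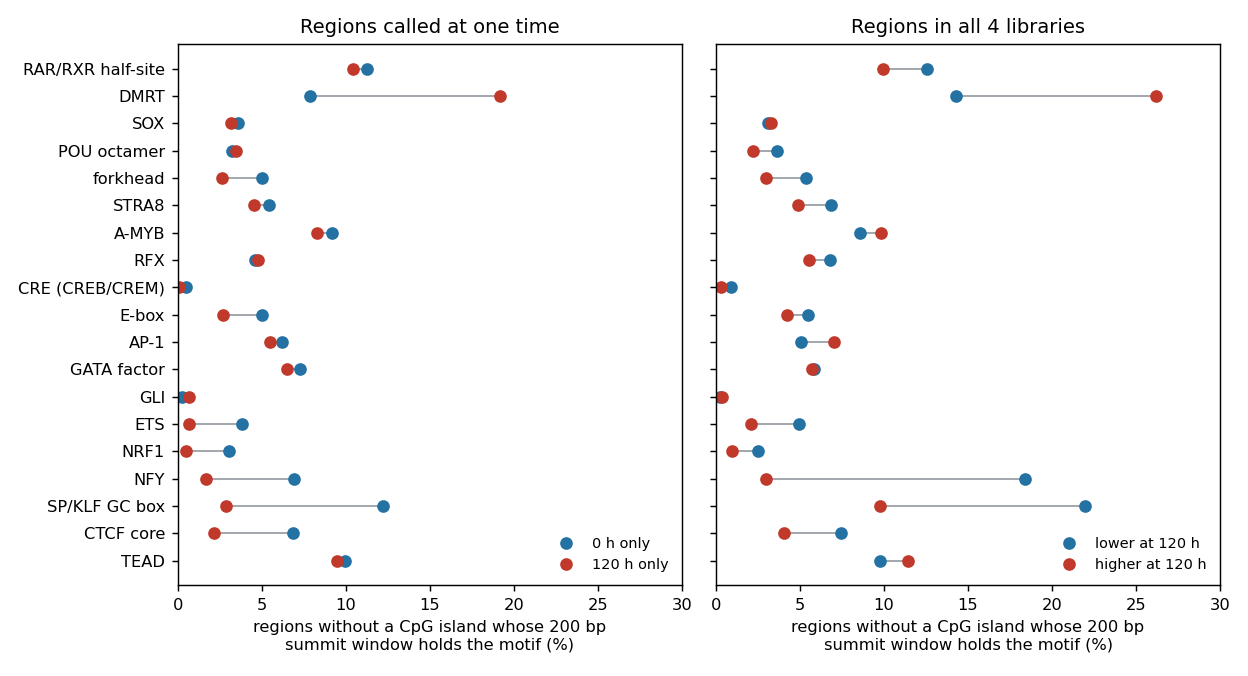
Percent of regions without a CpG island whose 200 bp summit window holds each of 19 motifs, for regions called at 0 h only (blue) and 120 h only (red) on the left, and for regions in all 4 libraries called lower (blue) and higher (red) at 120 h on the right. The DMRT motif is more frequent in the red sets and the NFY and GC box motifs in the blue sets of both panels.

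Heights were also read over 12 gene lists. Of the 28 tested regions of the differentiating spermatogonia list, 10 (35.7%, against 20% of all tested regions) were higher and 2 (7.14%, against 9.93%) lower, with a median centred log2 change of 0.40 against 0.21. Under the other scalings that centre or equalize the libraries, from 4 to 10 were higher. A region belongs to each gene to which the study assigned it, within 10 kb, and can lie at the start of a neighbour. The region at the start of *Ctcfl* (chr2:173118764-173120039), the germ cell relative of the insulator factor CTCF, had values of 83 and 107 at 0 h against 213 and 256 at 120 h. Its change was 2.25 (standard error 0.30, limma adjusted p = 3.95e-05), and it was the region of this list that was also higher on the deposited scale, by 1.31. The *Kit* start (chr5:75574591-75575349) had values of 96 and 144 at 0 h against 250 and 159 at 120 h, a centred change of 1.70 (limma adjusted p = 0.000165), with groups that did not overlap.

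*Stra8* was accessible at both times, in part in different regions. The region at its start (chr6:34920636-34921051) had values of 123 and 159 at 0 h against 202 and 182 at 120 h, a centred change of 1.40 (standard error 0.27, limma adjusted p = 0.00123). It held 2 AGGTCA motifs and 1 DMRT motif. An intronic region 1120 bp downstream (chr6:34921766-34922348), at a CpG island, reached 141 and 220 at 120 h, with no peak in any earlier library. Another 3 regions of the gene were called at 0 h only, with values between 51 and 94. On the deposited scale the start of *Stra8* changed by 0.46 and that of *Kit* by 0.76, neither past the threshold (limma adjusted p = 0.391 and 0.135).

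Other genes of this list with a region called higher were *Dmrt1*, with 406 and 476 at 0 h against 535 and 398 at 120 h, and *Dmrtb1*, with 93 and 78 against 96 and 92. Their centred changes were 1.01 and 1.08, while their deposited heights overlapped. A region each of *Rec8*, a meiotic cohesin gene, *Ccnd2*, the gene of cyclin D2, *Prss50* and *Rhox13* was higher too, as was a region of *Stra8* at the start of its neighbour *Wdr91*. The lower regions lay downstream of *Uchl1*, a ubiquitin hydrolase gene, with 353 and 428 against 113 and 61, and inside *Dnmt3a*, a DNA methyltransferase gene, with 184 and 317 against 97 and 60. The start of *Sohlh1*, a transcription factor needed for differentiation, changed by 0.24 (limma adjusted p = 0.523).

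Genes of undifferentiated spermatogonia showed both directions. Of the 52 tested regions of this list 7 (13.5%, against 20% of all tested regions) were higher and 8 (15.4%, against 9.93%) lower, with a median change of 0.13 against 0.21. The list includes *Enc1*, *Onecut2*, *Ptch1*, *Sdc4* and *Zfp462*, for which the authors had already shown reduced accessibility after RA in these libraries. Regions of *Enc1*, *Ptch1* and *Sdc4* are among the 8 lower ones, so the lower share is not independent of that choice. The largest fall was in a region assigned both to *Itga6*, the integrin used to enrich for spermatogonial stem cells, and to its neighbour *Pdk1* (chr2:71866486-71867212). It had values of 658 and 597 at 0 h against 156 and 40 at 120 h, a change of -2.05 (standard error 0.33, limma adjusted p = 0.000293). Both tested regions of *Ret*, the GDNF receptor subunit, were lower, with 267 and 302 against 96 and 66 at the start, and the starts of *Egr4* and *Sdc4* and regions of *Enc1* and *Ptch1* were lower too. The largest rise was in an intron of *Pax7*, with 52 and 40 against 83 and 82, followed by regions assigned to *Cdh1*, *Pax7* and *Eomes*. The higher regions of *Pou5f1*, *Bcl6b* and *Lin28a* lay at the starts of the neighbours *Cchcr1*, *0610010K14Rik* and *Dhdds*.

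*Gfra1*, the GDNF receptor gene of stem cells, lost peaks. It had 20 and 19 regions with a peak at 0 h, and 8 and 2 at 120 h. Over all 16453 genes present at both times the mean number of regions was lower at 120 h too, with 3.49 and 3.44 at 0 h against 2.46 and 1.82. The 2 *Gfra1* regions tested had changes of 0.25 and -0.16 (limma adjusted p = 0.532 and 0.711). *Zbtb16* went from 5 and 8 regions to 2 and 1, with a change of 0.15 at its start (limma adjusted p = 0.717). The 2 tested *Nanos2* regions changed by 0.26 and -0.08 (limma adjusted p = 0.5 and 0.833), with values of 269 and 310 against 295 and 110 in the upstream one. *Nanos3*, which protects germ cells, had a peak in both 0 h libraries, up to 191 and 120, and no 120 h peak assigned to it. At one of its regions, 120 h peaks of 83 and 64 were assigned to another gene.

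**Figure D5:**
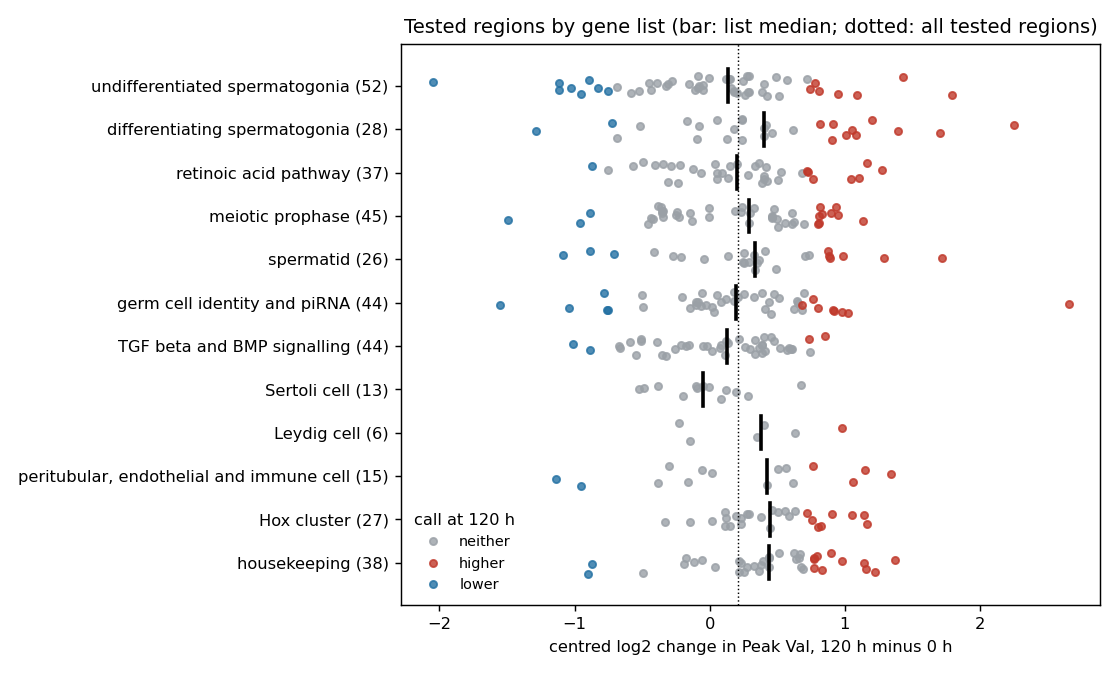
Centred log2 change in Peak Val (120 h minus 0 h) of each tested region (points) of the 12 gene lists, with the number of regions in parentheses, the list median as a bar and the median of all tested regions as a dotted line. Red points were called higher and blue points lower; the differentiating spermatogonia list has 10 red and 2 blue points and the undifferentiated list 7 and 8.

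The shares in the RA pathway were close to or below those of all regions. Of its 37 tested regions 7 (18.9%) were higher and 1 (2.70%) lower, with a median of 0.20. The region called lower was the CpG island promoter of *Rarb* (chr14:16574904-16575944), the RA receptor gene that is itself an RA target. Its values from 0 h to 120 h were 138 and 205, then 71 and 101, then 70 and 59, and last 56 and 41, which were -0.70 and -0.40, -0.36 and -0.20, -0.30 and -0.79, and -1.57 and -1.37 centred. Its change was -0.87 (standard error 0.26, limma adjusted p = 0.0195). Higher regions lay at *Ncor1* (3 regions), *Nrip1*, *Rara*, *Rxrb* and *Cyp26b1*. The *Cyp26a1* promoter, of the RA-degrading enzyme, had 95 and 116 against 56 and 45, a change of -0.12 (limma adjusted p = 0.749). *Aldh1a1*, *Stra6* and *Fabp5*, which serve RA synthesis and retinoid transport, had a peak in both 0 h libraries and in neither 120 h library, with highest values at 0 h between 39 and 142. Such a call was made for 9.81% of all genes with a peak. With equal numbers of peaks per library, none of these genes was called at 0 h only.

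Most meiotic genes had peaks at both times, as did most genes of any kind. All but 1 of the 30 genes of this list that had a peak were called at both, against 16453 of all 21415 genes with a peak. Of 45 tested regions 9 (20%, against 20% of all tested regions) were higher and 3 (6.67%, against 9.93%) lower. The start of *Stag3*, a meiotic cohesin gene, had 943 and 1225 at 0 h against 1125 and 882 at 120 h, and that of *Msh5*, a gene of meiotic recombination, 492 and 735 against 719 and 473. The groups overlapped on the deposited scale, and the centred changes were 0.83 and 0.90. A region assigned to *Syce2*, a synaptonemal complex gene, at the start of its neighbour *Gcdh* was lower, with 377 and 389 against 90 and 56 and a change of -1.49 (limma adjusted p = 0.000496). The start of *Sycp3* changed by 0.70 (limma adjusted p = 0.0636). The largest rise, assigned to *Tex14*, lay at the start of *Rad51c*, with 221 and 293 against 363 and 234.

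For the spermatid list 6 of 26 regions (23.1%, against 20%) were higher and 3 (11.5%, against 9.93%) lower, near the shares of all tested regions, and the region of *Prm1*, *Prm2*, *Prm3* and *Tnp2* lay near the start of *Socs1* and is a single region counted for all 4. *Crem*, a regulator of spermatid genes, had both, with a start at 252 and 296 against 531 and 413 and an internal region at 142 and 188 against 46 and 35. Among germ cell and piRNA genes 8 of 44 (18.2%) were higher and 5 (11.4%) lower, near those shares too. An intron of *Tet3* (chr6:83430481-83430956), which oxidizes methylcytosine, had 75 and 52 at 0 h against 290 and 145 at 120 h, a change of 2.66 (standard error 0.29, limma adjusted p = 5.17e-06), also higher on the deposited scale. The piRNA gene *Tdrd1* had 1 higher and 2 lower regions.

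For TGF beta and BMP signalling 2 of 44 regions were higher (4.55%, against 20%) and 2 lower (4.55%, against 9.93%). Of 27 Hox cluster regions, 8 (29.6%, against 20%) were higher and 0 (against 9.93%) lower by limma, with 0 lower at an unadjusted p under 0.05. Their median was 0.45. The higher regions were of low height, such as that of *Hoxd8*, *Hoxd9* and *Hoxd10*, with 57 and 64 against 75 and 66. Under the other scalings that centre or equalize the libraries, from 2 to 8 Hox regions were higher, and 1 was lower after removal of the GC trend. The housekeeping genes had 11 higher (28.95%, against 20%) and 2 lower (5.26%, against 9.93%) of 38, with a median of 0.44 against 0.21 for all regions. Under the same other scalings, from 3 to 16 housekeeping regions were higher. Of the somatic lists, Sertoli cell genes had 0 higher and 0 lower of 13 regions by limma, and 1 higher and 0 lower at an unadjusted p under 0.05. Leydig cell genes had 1 higher (16.7%, against 20%) and 0 lower of 6. Peritubular, endothelial and immune cell genes had 4 higher (26.7%, against 20%) and 2 lower (13.3%, against 9.93%) of 15. The list medians turned with the scaling. Without centring all 12 were negative, from -0.99 to -0.49, and those of the undifferentiated, RA pathway, meiotic, piRNA, TGF beta and peritubular lists also changed sign in at least 1 of the other scalings.

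Of 21415 genes with a peak in any of the 4 libraries, 2101 (9.81%) had one in both 0 h libraries and none at 120 h, and 37 (0.173%) the reverse. Of the 20600 genes with a peak in both 0 h libraries, 79.9% had one in both 120 h libraries. Genes present at both times had a mean of 3.49 and 3.44 regions at 0 h and of 2.46 and 1.82 at 120 h, and 148 of 16453 had more in both 120 h libraries than in either 0 h library. The 37 gene names stand for 28 regions and include 5S rRNA genes, a repeated family whose reads cannot be placed with certainty. The highest were *Numb*, a cell fate determinant, with 186 and 122 at 120 h, 34 and 32 at 48 h and no peak before, and *Cyp11a1*, a steroid synthesis gene, with 212 and 102 at 120 h and none at the other times. With equal numbers of peaks, 524 genes were called at 0 h only and 553 at 120 h only.

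Chromosomes differed in the balance of calls. On chromosome 11, 31.4% of 1655 tested regions were higher and 5.62% lower, and on chromosome 13, 13.0% of 852 were higher and 17.0% lower, the extremes among the autosomes. Gene starts made up 24.1% of the regions on chromosome 11 and 15.8% on chromosome 13. They also made up 24.1% on chromosome 7, where 18.2% of the tested regions were higher and 10.1% lower, and 38.4% on the X chromosome. Whether the gene start share and the calls are linked was not tested. On the X chromosome 17.4% of 432 were higher and 10.6% lower, within the range of the autosomes.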

How the data were processed

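ATAC-seq was performed by the authors on sorted PIWIL2-eGFP cells, 1 mouse per library. The files used here hold the peaks of each library with their signal, in units of overlapping tags (coverage). Per the labels and methods, the authors aligned reads to mm10 with BWA 0.7.12, removed duplicates and mitochondrial reads, reduced the libraries to equal numbers of tags, called peaks in each library without a control with MACS2 2.1.0, and removed blacklisted regions. The submitters' processing notes also list SAMtools 0.0.19, bedtools 2.25.0 and bcl2fastq 2.20. The deposited signal is not a count, so the count test of the authors' methods could not be run on it.

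Peaks of the 4 libraries that overlapped by 1 bp were merged, and a region took the highest Peak Val of each library. A region was called at a time when both libraries had a peak. Log2 heights of regions called in all 4 were centred on each library's median and compared with limma 3.58.1 (R 4.3.3), with an adjusted p threshold of 0.05. The limma step was tested on simulated data. Library measures were compared by exact permutation tests (scipy 1.17.1). Gene assignment, gene start distance and CpG islands are those of the deposited tables, and a gene start region lies within 1000 bp. Motifs were searched in 200 bp around the summit in GRCm38. No column of another sample was used.

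Named were the 8 largest rises and 8 largest falls whose groups did not overlap, the 6 highest regions called at each time only, the largest rise and fall of each gene list, and 10 genes of differentiation and RA response. Other list members are given by their counts, with values for examples chosen after their values were seen. The members and lists were chosen with earlier results of these data known. Other scalings, overlaps, filters, equal peak numbers, a replicate block and the omission of each library were tried, and removal of the GC trend was added after seeing the data. The other deposited tables and tracks were not used here. Results for 1 of the 6 highest regions called at 120 h only and for 1 gene of the RA pathway list are not reported here.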

Additional observations from a re-analysis of the deposited data

How the results depend on the processing

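Against 4058 regions called higher, the total was 207 without centring, 1540 after quantile and 1610 after cyclic loess normalization (1574 of them among the 4058), 1021 when centred on gene start regions, and 2616 with a mean value of at least 100. Without centring 7283 were lower. Leaving out 1 library gave 1325 to 3591 higher and 931 to 1549 lower. The lowest counts came without 120 h replicate 2, with 1108 lower and 2054 higher without 0 h replicate 1, and 1284 lower and 2322 higher without 0 h replicate 2. In each the lone library is assumed to vary like the other time.

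Regions called at 0 h only numbered 3658 with equal numbers of peaks and 44810 when either library sufficed, and 27357 to 38221 without 1 library. Those at 120 h only numbered 1929 at a reciprocal overlap of 50%, 3004 with equal numbers, 5307 for either library, and 1376 to 4434 without 1 library. Genes at 0 h only numbered 524 with equal numbers and 2210 to 4038 without 1 library, and genes at 120 h only 553 with equal numbers, 127 for either library and 49 to 109 without 1 library. With equal numbers the differences between times were 2.60 percentage points for gene starts, 3.85 for CpG islands and 2.62 for assigned genes. Mean signal in peaks differed by 1.24 and with equal numbers by -42.2, and turned to -6.19 without 0 h replicate 1 and to -2.18 without 120 h replicate 1, within a range of -6.19 to 8.66 without 1 library. The causes were not tested beyond the number of peaks.

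Both times share replicate numbers, but each library is its own mouse, and the deviations of same-numbered libraries correlated with r = 0.229 across 20294 regions. With the replicate block 4896 regions were higher and 2352 lower, and with the GC trend removed as well 3300 and 2785. Of the 49 named regions that were tested, 40 were called. All 40 kept their call with the block, 27 without centring and 33 without 120 h replicate 2, and none was called in the other direction in any setting. Regions under the calling limit have no height, which limits all tests to regions called in all 4 libraries.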
